A study of Mus musculus with 6 samples.

Results

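Mitochondrial ribosomal proteins were followed as the genes whose symbol is Mrpl or Mrps with a number and at most 1 further letter. The rule found 78 genes among the 35419 genes restored from the deposited table, 49 named for the large subunit (Mrpl) and 29 named for the small subunit (Mrps). All 78 had a mean of at least 1 FPKM (fragments per kilobase of gene length, scaled to the library's total) and were tested with 9793 genes in all. The 2 groups were mouse bone marrow-derived macrophages (BMDMs) from C57BL/6 femurs, 3 Ctrl libraries and 3 libraries taken 12 h after stimulation with zoledronic acid (ZA), a nitrogen-containing bisphosphonate that blocks bone resorption. Cells of both groups had been grown with macrophage colony-stimulating factor (M-CSF, 10 ng/ml) for 7 days, and no genetic change or transgene is named. The methods list female wild-type C57BL/6 mice of 6 weeks, without saying that the marrow for these libraries came from them. The ZA concentration of these libraries and whether marrow was pooled are not given in the sources used here. Experiments are said in general to have been repeated independently at least 3 times, but nothing ties the 3 libraries of a group to separate animals or cultures, so p-values may measure only a technical spread between these libraries. Libraries held between 41230600 and 42155808 fragments.

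The mitochondrial ribosome works in the matrix, where it makes the small set of membrane proteins that mitochondrial DNA encodes, all of them parts of the respiratory chain or ATP synthase. Its RNAs come from mitochondrial DNA, while its proteins are encoded in the nucleus, made by the cytosolic ribosome and imported. Some of these proteins belong to families that bacteria also have, and others exist only in mitochondrial ribosomes. The small subunit reads the mRNA and the large subunit joins the amino acids. Respiration is one of the features in which activation states of macrophages are known to differ.

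All 7 macrophage markers examined (among them Adgre1, Csf1r and Cd68) were expressed, with summed values of 23402.6 to 27310.3 FPKM in Ctrl and 24287.4 to 27766.5 in ZA. Of the 10 neutrophil and granulocyte progenitor markers 6 reached a mean of 1 FPKM, and their sum was 35.4 to 50.9 FPKM in Ctrl and 31.5 to 37.1 in ZA, with Ly6g at 0 in every library. The 3 T cell and the 3 B cell markers stayed under 1 FPKM, and 2 of 3 stromal markers did not, at summed values of 8.37 to 16.4 FPKM in Ctrl and 7.61 to 12.5 in ZA. The part of these other cells in the values below was not tested. In bulk RNA, fewer cells of a type and less RNA per cell cannot be told apart.

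No mitochondrial ribosomal protein gene differed between Ctrl and ZA at an adjusted p-value under 0.05 (limma with Benjamini-Hochberg adjustment over 9793 genes), against 36 of all genes tested, which is 0.368%. Of the 78 genes, 70 had an absolute log2 fold change under 0.1, that is under 1.07-fold on the log2(FPKM + 1) scale. The 95% interval of the log2 fold change lay within 0.25 on either side of 0 (1.19-fold) for 72 genes, and the 6 others were Mrps28, Mrps36, Mrps18c, Mrps16, Mrpl40 and Mrpl52. The lowest bound of any interval was -0.46 and the highest 0.33. Without adjustment (p-value under 0.05), 3 genes were higher (Mrps16, Mrpl52 and Mrpl40), or 3.85% of members where all genes gave 7.5%. In the other direction 4 genes were lower (Mrps36, Mrps28, Mrps6 and Mrpl10), or 5.13% of members where all genes gave 4.84%. The 3 ZA libraries lay above all Ctrl libraries for 5 members (6.41%, against 11.4% of all genes), and below them for 6 (7.69%, against 6.75%). The members' shares were near or under those of genes at large, and were not compared with them by a test.

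**Figure D1:**
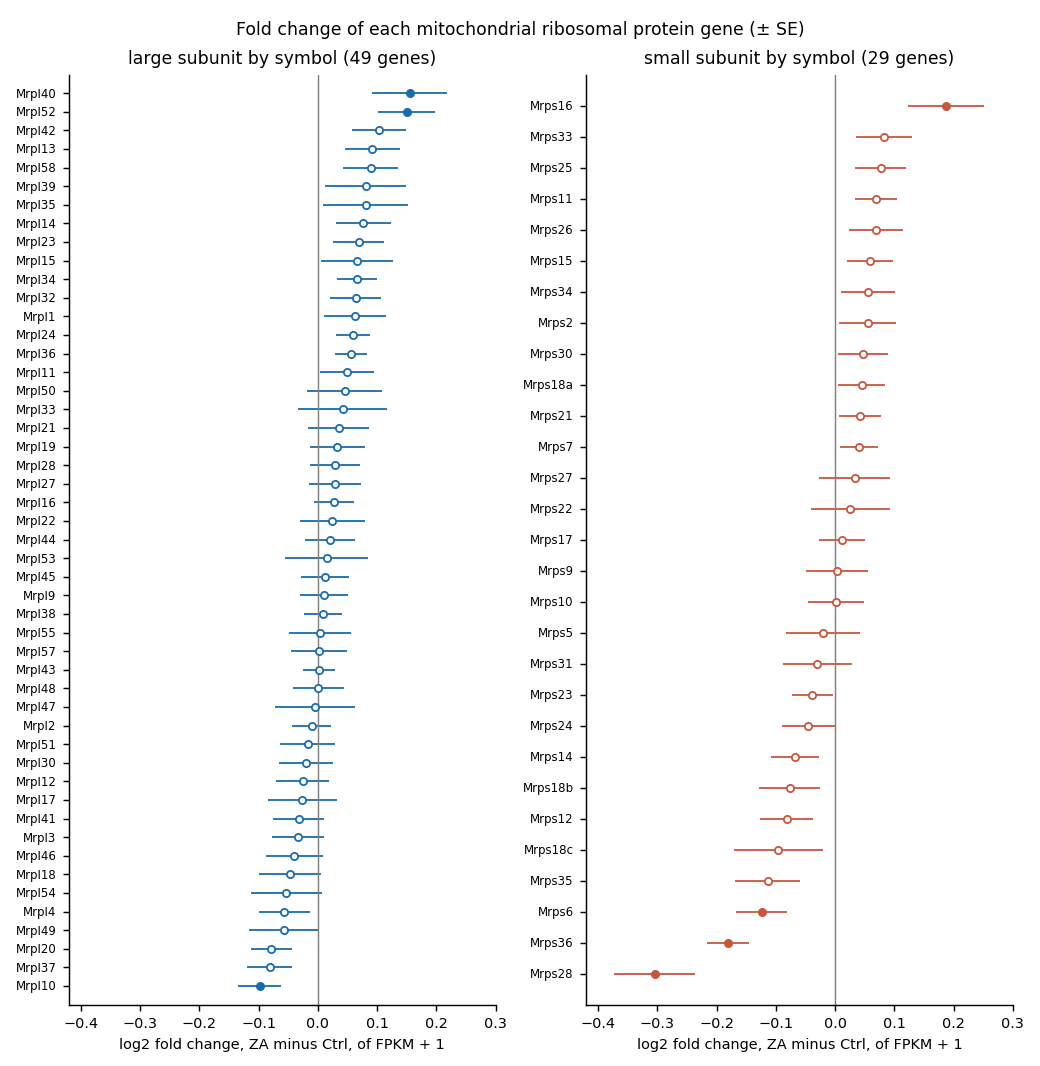
Log2 fold change of FPKM + 1 (x axis, ZA minus Ctrl) of each gene, with bars of 1 SE, for 49 large (left) and 29 small subunit genes (right), where filled points have an unadjusted limma p-value under 0.05. The large subunit genes span -0.0984 to 0.16, and the small subunit genes reach further, from -0.30 (Mrps28) to 0.19 (Mrps16).

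The median log2 fold change of the 78 members was 0.0176, beside 0.0100 for all genes tested. The middle of the members ran from -0.0316 (lower quartile) to 0.0581 (upper quartile), and that of all genes from -0.0306 to 0.0496. Of the members, 50 (64.1%) had a positive log2 fold change, beside 56.9% of all genes. The SE of a member's log2 fold change had a median of 0.046, close to the 0.043 of all genes. Within groups, log2 FPKM had a median SD of 0.067 per member, where counting fragments alone gives 0.049.

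**Figure D2:**
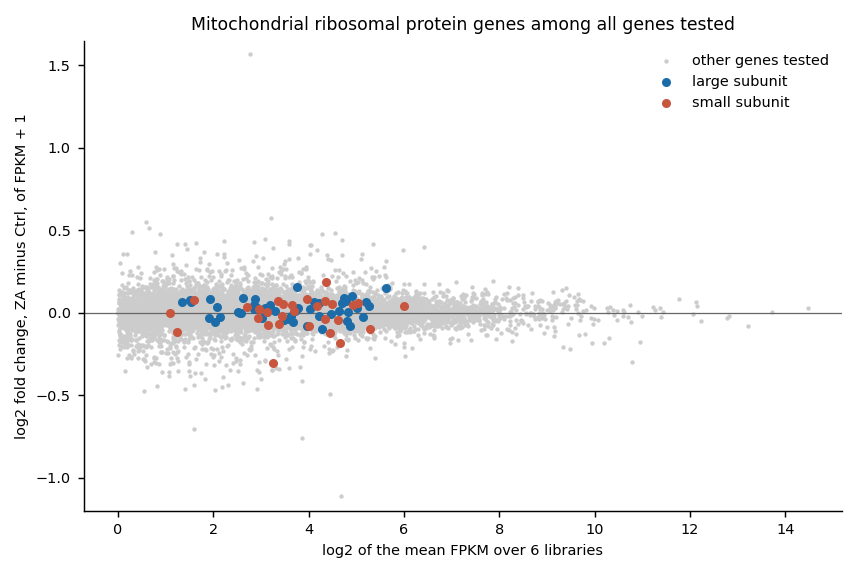
Log2 fold change (y axis, ZA minus Ctrl, of FPKM + 1) against the log2 of the mean FPKM over 6 libraries (x axis) for all genes tested (grey) and for large (blue) and small subunit genes (red). The members lie inside the grey cloud, with Mrps28 the lowest of them at -0.30 and Mrps16 the highest at 0.19.

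The 150 bases before the annotated start were taken from RefSeq (GRCm38.p6) for the members with an unadjusted p-value under 0.05 (lower in ZA: Mrps36, Mrps6 and Mrpl10, higher: Mrpl52, Mrpl40 and Mrps16), and for Mrps11, whose start lies back to back with that of Mrpl46. Mrps28 had no entry in the promoter table. Capitals mark 1 of 3 searched letter strings on either strand, which do not overlap one another in these windows: CCGGAAG (core of sites for ETS factors such as GABP), AAGATGGC (YY1 core) and GCGCATGC (NRF1 core), which factors of nuclear genes for mitochondria are known to bind.
Mrps36, chr13:100744660-100744809, - strand: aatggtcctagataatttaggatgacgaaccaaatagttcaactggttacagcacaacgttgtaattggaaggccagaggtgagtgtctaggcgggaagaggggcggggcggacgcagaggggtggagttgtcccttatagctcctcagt
Mrps6, chr16:92058186-92058335, + strand: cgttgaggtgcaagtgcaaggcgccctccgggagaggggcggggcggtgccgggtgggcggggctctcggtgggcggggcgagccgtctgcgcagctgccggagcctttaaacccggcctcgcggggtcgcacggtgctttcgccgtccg
Mrpl10, chr11:97041432-97041581, + strand: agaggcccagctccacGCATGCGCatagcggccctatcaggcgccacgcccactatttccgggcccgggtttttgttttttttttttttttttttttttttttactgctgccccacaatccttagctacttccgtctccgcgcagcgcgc
Mrpl52, chr14:54426759-54426908, + strand: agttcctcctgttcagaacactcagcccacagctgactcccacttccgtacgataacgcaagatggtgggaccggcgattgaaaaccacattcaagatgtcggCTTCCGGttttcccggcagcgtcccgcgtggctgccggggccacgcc
Mrpl40, chr16:18876638-18876787, - strand: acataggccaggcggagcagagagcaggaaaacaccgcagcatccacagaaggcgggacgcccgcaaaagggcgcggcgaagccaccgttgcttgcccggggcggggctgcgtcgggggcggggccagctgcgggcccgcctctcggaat
Mrps16, chr14:20393491-20393640, - strand: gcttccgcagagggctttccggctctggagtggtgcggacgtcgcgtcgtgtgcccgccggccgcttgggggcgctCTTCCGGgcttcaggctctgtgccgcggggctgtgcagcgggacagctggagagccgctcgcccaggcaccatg
Mrps11, chr7:78782981-78783130, + strand: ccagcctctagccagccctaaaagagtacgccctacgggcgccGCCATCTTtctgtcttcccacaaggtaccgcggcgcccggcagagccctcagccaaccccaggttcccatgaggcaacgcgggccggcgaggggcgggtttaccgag

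The Mrps16 and Mrpl52 windows each hold the ETS string, starting 74 and 47 bases before the gene start. The Mrpl10 window holds the NRF1 string, starting 134 bases before it, and the Mrps11 window holds the YY1 string, starting 107 bases before it. The Mrps36, Mrps6 and Mrpl40 windows hold none of the 3 strings. Mrps16 has another annotated start, whose promoter holds none either. In the table, 69 members had 75 promoter entries of 300 bases (250 before and 50 after the start). The ETS string stood in 34.7% of these entries, in 19.6% of the entries of genes tested and in 8.86% of all entries. The YY1 string stood in 16%, 5.06% and 2.75% of them, and the NRF1 string in 10.7%, 5.59% and 2.71%. The TATA box string TATAAA stood in 6.67%, 6.88% and 13.6%, and CCAAT in 40%, 37.4% and 37.4%. A string match is a description of these letters, not of binding, and members that were higher and lower in ZA both carry and lack them.

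Some members start back to back with another gene. For 26 of the 69 members (37.7%) another gene started on the opposite strand within 1000 bases upstream, pointing away, beside 21% of the genes tested with a promoter entry. Of their neighbours, 21 were tested, among them the members Mrps11 and Mrpl46, each the neighbour of the other. Of these 21, 0 had an unadjusted limma p-value under 0.05, where all genes gave 12.3%, and the shares were not compared by a test. Mrps11, a small subunit protein of a bacterial family, and Mrpl46, a mitochondria-specific large subunit protein, start 42 bases apart. In GENCODE they also share 173 exon bases on opposite strands (7.97% of Mrps11 and 12.2% of Mrpl46). Without stranded counting, reads from these bases cannot be told apart. Mrps11 had 9.75, 9.84 and 10.1 FPKM in Ctrl and 10.1, 10.8 and 10.4 in ZA, with a log2 fold change of 0.0691 (limma adjusted p = 0.469). Mrpl46 had 12.6, 12.9 and 11.3 FPKM in Ctrl and 12, 12 and 11.8 in ZA, with a log2 fold change of -0.0396 (limma adjusted p = 0.777). Both genes thus overlapped between the groups. Mrps12 and Sars2, the mitochondrial seryl-tRNA synthetase, start 147 bases apart, and Mrpl40 and the histone chaperone gene Hira 113 bases apart. Sars2 had a mean of 3.01 FPKM in Ctrl and 3.07 in ZA, and Hira had 6.46 and 6.11.

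Among large subunit genes, 33 of 49 had a positive log2 fold change, and their median was 0.0203. At an unadjusted p-value under 0.05, 2 were higher (4.08%, against 7.5% of all genes) and 1 lower (2.04%, against 4.84%). The 30 genes of bacterial families had a median of 0.0286 (20 positive), and the 19 mitochondria-specific genes had a median of 0.0080 (13 positive).

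Mrpl52, a mitochondria-specific protein, had 45.4, 45.8 and 48.3 FPKM in Ctrl and 48.4, 55.2 and 51.6 in ZA. The groups did not overlap, although Ctrl 3 and ZA 1 were nearly level. Its means were 46.5 ± 1.56 and 51.8 ± 3.41 (SD, n = 3 each), with a log2 fold change of 0.15 ± 0.0475 (SE, limma adjusted p = 0.26). Mrpl40, a mitochondria-specific protein as well, had 14.2, 11.6 and 12.4 FPKM in Ctrl and 14.4, 13.9 and 14.5 in ZA. Ctrl 1 reached into the ZA range, so that the groups overlapped. Its log2 fold change amounted to 0.16 ± 0.0630 (SE, limma adjusted p = 0.372). Mrpl42 had 28.1, 28.9 and 29.4 FPKM in Ctrl and 31.6, 32.7 and 28.8 in ZA, where ZA 3 fell inside the Ctrl range (log2 fold change 0.10, limma adjusted p = 0.413). Mrpl36, of a bacterial family of very small proteins, had the smallest SE of the 78 genes, at 25.8, 24.9 and 25.2 FPKM in Ctrl and 26.5, 26.4 and 26.1 in ZA. Its groups did not overlap, at a log2 fold change of 0.0560 ± 0.0264 (SE, limma adjusted p = 0.446).

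Mrpl10 and Mrpl12 form the stalk that engages translation factors, and Mrpl12 has also been described as a partner of the mitochondrial RNA polymerase. Mrpl10 had 20.6, 19.6 and 20.1 FPKM in Ctrl and 19.4, 18 and 18.8 in ZA. Every ZA library was below every Ctrl library, by a log2 fold change of -0.0984 ± 0.0364 (SE, limma adjusted p = 0.338). Mrpl12 had 34.6, 36.8 and 36 FPKM in Ctrl and 33.6, 37.6 and 34.3 in ZA. Its ZA libraries spanned the Ctrl range, and the 95% interval of its log2 fold change ran from -0.13 to 0.0777. Mrpl37, a mitochondria-specific protein, had 15.6, 16.7 and 15.7 FPKM in Ctrl and 15.1, 15.5 and 14.6 in ZA, without overlap (limma adjusted p = 0.436). Mrpl20, which takes part in early assembly in bacteria, had 30.4, 29.8 and 30.1 FPKM in Ctrl and 27.5, 28 and 29.9 in ZA. There ZA 3 stood at the Ctrl level and the other ZA libraries below it (limma adjusted p = 0.413). Mrpl4, at the exit tunnel, had means of 4.2 ± 0.115 and 4 ± 0.173 (SD, n = 3 each). Mrpl58 is a peptidyl-tRNA hydrolase that frees stalled chains and is built into the large subunit. It had 5.88, 5.76 and 6.21 FPKM in Ctrl and 6.79, 6.23 and 6.17 in ZA, which overlapped (log2 fold change 0.0894, limma adjusted p = 0.48).

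Among small subunit genes, 17 of 29 had a positive log2 fold change, and their median was 0.0123. At an unadjusted p-value under 0.05, 1 was higher (3.45%, against 7.5% of all genes) and 3 were lower (10.3%, against 4.84%), Mrps36 among them. For 4 genes all ZA libraries lay below all Ctrl libraries (13.8%, against 6.75%). These shares rest on few genes and were not compared by a test. With small subunit genes placed by the structure of the ribosome, which leaves out Mrps36, 2 of 30 were lower at that threshold. By that placing, 3 of 30 had all ZA libraries below all Ctrl libraries. The SD of the log2 fold changes over genes was 0.0962 in this subunit and 0.0566 in the large one, as a description.

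The largest difference was that of Mrps28, a small subunit protein classed with bacterial S1. It had 10.7, 10.4 and 10.5 FPKM in Ctrl and 9.54, 7.73 and 7.85 in ZA. All ZA libraries were lower, with ZA 1 nearer to Ctrl than ZA 2 and ZA 3. The means were 10.5 ± 0.171 and 8.37 ± 1.01 (SD, n = 3 each), a ratio of 0.795, and the log2 fold change was -0.30 ± 0.0686 (SE, limma adjusted p = 0.12). The 95% interval ran from -0.46 to -0.15. Mrps28 is among the less deeply counted members, with 232 to 322 fragments per library. Without ZA 1 the log2 fold change was -0.39 and the adjusted p-value was 0.0164, the sole member call under 0.05 in any setting tried, and over all settings the adjusted p-value ran from 0.0164 to 0.348.

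The smallest p-value belonged to Mrps36, which carries a ribosomal symbol but is now known as a subunit of the 2-oxoglutarate dehydrogenase complex of the TCA cycle. Mrps36 had 26.3, 27.2 and 27 FPKM in Ctrl and 23.2, 22.8 and 24.7 in ZA. The groups were well apart, at means of 26.8 ± 0.482 and 23.6 ± 1.01 (SD, n = 3 each). The log2 fold change was -0.18 ± 0.0353 (SE, limma adjusted p = 0.0947), with adjusted p-values from 0.0609 to 0.304 over the settings tried. Of the 75-base strings of the Mrps36 transcripts in GENCODE, 8.93% also occur in the processed pseudogene Mrps36-ps2 and 7.5% in Mrps36-ps1, so reads could be split between them. The same holds for other members named below. Mrps18b shares 12.1% of its strings with the processed pseudogene Gm13552, and Mrps33 shares 10.3% with Gm5776.

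Mrps6, next to Mrps18 proteins on the platform, had 23.5, 21.8 and 22.7 FPKM in Ctrl and 20.7, 21.8 and 19.6 in ZA. The groups met at 21.8, with ZA 2 just under Ctrl 2, so that they did not overlap (log2 fold change -0.12 ± 0.0430 SE, limma adjusted p = 0.304). In GENCODE its exons share 305 bases (19.9%) with the protein-coding gene Gm49711 on the same strand. They share 159 bases (10.4%) with Slc5a3, an inositol transporter gene on the same strand, whose means were 2.81 FPKM in Ctrl and 2.87 in ZA. Mrps35 had 2.53, 2.49 and 2.49 FPKM in Ctrl and 2.17, 2.48 and 2.08 in ZA, with ZA 2 just under the lowest Ctrl value (limma adjusted p = 0.453).

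Mrps16, whose bacterial relative takes part in subunit assembly, had 19, 17.1 and 21.1 FPKM in Ctrl and 22.3, 21.7 and 21.4 in ZA. The ZA libraries were close to each other and just above Ctrl 3, while Ctrl spread widely. The means were 19.1 ± 1.99 and 21.8 ± 0.413 (SD, n = 3 each), at a log2 fold change of 0.19 ± 0.0639 (SE, limma adjusted p = 0.301). Mrps25, a mitochondria-specific protein, had 2.79, 2.9 and 3.05 FPKM in Ctrl and 3.14, 3.1 and 3.14 in ZA, without overlap (log2 fold change 0.0770, limma adjusted p = 0.509). In GENCODE 69.8% of the exon bases of Mrps25 are also exon of Nr2c2 on the opposite strand, and without stranded counting the reads of both cannot be told apart. Nr2c2 had means of 7.12 FPKM in Ctrl and 7.45 in ZA. Mrps33 had 16.3, 14.6 and 14.7 FPKM in Ctrl and 16.7, 15.5 and 16.2 in ZA, which overlapped (limma adjusted p = 0.514).

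**Figure D3:**
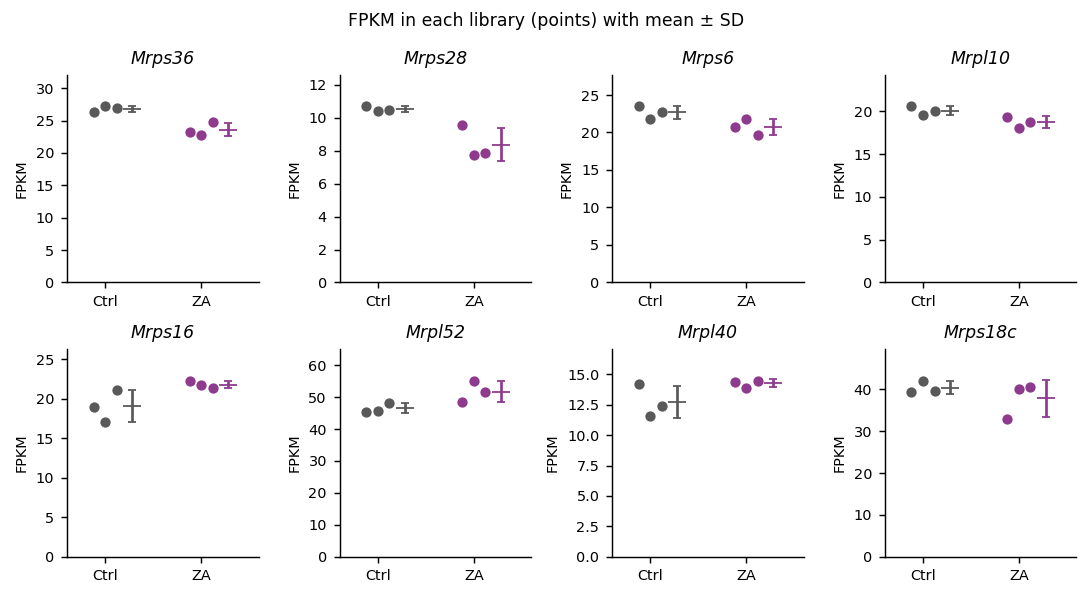
FPKM (y axis, from 0) of 8 genes in each Ctrl and ZA library (points), with mean ± SD beside them (n = 3 each). Mrps36, Mrps28, Mrps6 and Mrpl10 are lower in ZA without overlap, Mrps16 and Mrpl52 are higher without overlap, and the groups overlap for Mrpl40 and Mrps18c.

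The Mrps18 paralogs sit at separate places in the ribosome. Mrps18c is the one that replaces bacterial S18, Mrps18b has another site in the small subunit, and Mrps18a is found in the large subunit. Mrps18c had 39.3, 42.1 and 39.7 FPKM in Ctrl and 32.8, 40.2 and 40.6 in ZA, where ZA 1 alone was low. Its log2 fold change of -0.0958 became 0.0018 without ZA 1. Mrps18b had 9.18, 8.87 and 9.31 FPKM in Ctrl and 8.28, 9.38 and 8.16 in ZA (log2 fold change -0.0766, limma adjusted p = 0.584). Mrps18a had 30, 30.3 and 29 FPKM in Ctrl and 30.9, 32.3 and 29.1 in ZA (log2 fold change 0.0451, limma adjusted p = 0.686). The groups overlapped for each of the 3. Mrps12, at the decoding centre, had 16.9, 15.7 and 17.3 FPKM in Ctrl and 16.2, 15.8 and 15 in ZA (log2 fold change -0.0820, limma adjusted p = 0.488). Mrps30, a large subunit protein in spite of its symbol, had 12.6, 12.4 and 11.8 FPKM in Ctrl and 12.2, 12.5 and 13.4 in ZA (log2 fold change 0.0471, limma adjusted p = 0.692).

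Set side by side, the large subunit genes summed to 758.6, 759.1 and 765.1 FPKM in the Ctrl libraries, and to 767.0, 784.3 and 773.8 in the ZA libraries. The small subunit genes summed to 497.2, 494.2 and 497.4 FPKM in the Ctrl libraries, and to 489.9, 498.7 and 496.0 in the ZA libraries. ZA values were all above Ctrl for the large subunit, and overlapped with Ctrl for the small one. The ratio of the sums was 1.5258, 1.5359 and 1.5382 in Ctrl libraries, and 1.5655, 1.5727 and 1.5601 in ZA libraries, that is 2.14% higher in ZA without overlap. Without Mrpl52 and Mrps28, left out for their values in these data, it was 1.08% higher. Every ZA library (1.4794 to 1.4959) was then above every Ctrl library (1.4660 to 1.4742). That ratio still counted Mrps36 as small, whose mean was 26.8 FPKM in Ctrl and 23.6 in ZA. It therefore does not show that the difference holds beyond these few genes. With proteins placed by the structure of the ribosome, so that Mrps30 and Mrps18a count as large, Mrps36 is left out and members of other symbols are added, the ratio was 1.6064 to 1.6196 in Ctrl and 1.6313 to 1.6611 in ZA. These ratios weigh abundant genes most and are descriptions, with no test over the members. The medians of the log2 fold changes differed by 0.0080 between the subunits, and this difference became -0.0041 with a filter of 5 FPKM and -0.0044 without Ctrl 2. All members together took 0.1651% to 0.1683% of the fragments of a library, with Ctrl and ZA overlapping.

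Levels differed far more between genes than between groups. Mean FPKM ran from 2.14 (Mrps10) to 64.1 (Mrps21), a 30-fold range, with a median of 12.7 for large and 12.9 for small subunit genes and of 9.03 over all genes tested. Mrps21 had 64.1, 63.4 and 61.9 FPKM in Ctrl and 67.1, 61.7 and 66.4 in ZA. Mrps10 had 2.03, 2.11 and 2.27 in Ctrl and 2.14, 2.15 and 2.13 FPKM in ZA libraries. The highest large subunit genes were Mrpl52 (mean 49.1 FPKM) and Mrpl33 (38.2), and the lowest were Mrpl1 (2.54) and Mrpl14 (2.84). Mrpl33 and Mrpl14 overlapped between the groups, as did Mrpl1. The order of the 78 genes was nearly the same in Ctrl and ZA (Spearman's rho 0.9968 over genes, which share libraries and gene models).

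FPKM divides by the length of the gene model, which can be recovered from the values, and this length ran from 412 to 8707 bases over the members. All 11 members of at least 4000 bases had a mean FPKM of at most 5.9, and 10 of the 11 members under 5 FPKM were among them. Across the 78 genes, FPKM and length had a Spearman's rho of -0.81, while fragments and length had one of 0.17. Mean fragments ran from 218 to 1866 per library, an 8.54-fold range, and the SD over genes was 0.61 on the log2 scale for fragments and 1.13 for FPKM. Mrpl14 was scaled by 7525 bases, where its longest coding transcript in GENCODE vM21 has 645 bases, and Mrpl4 by 8452 bases, where the longest has 1288. The levels of such genes relative to others therefore depend on the gene model. A long model also lowers FPKM and so shrinks a fold change on the log2(FPKM + 1) scale. For Mrpl14 this was 0.0770 where the log2 ratio of the mean FPKM was 0.10, and for Mrps35 it was -0.11 where the log2 ratio was -0.16.

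**Figure D4:**
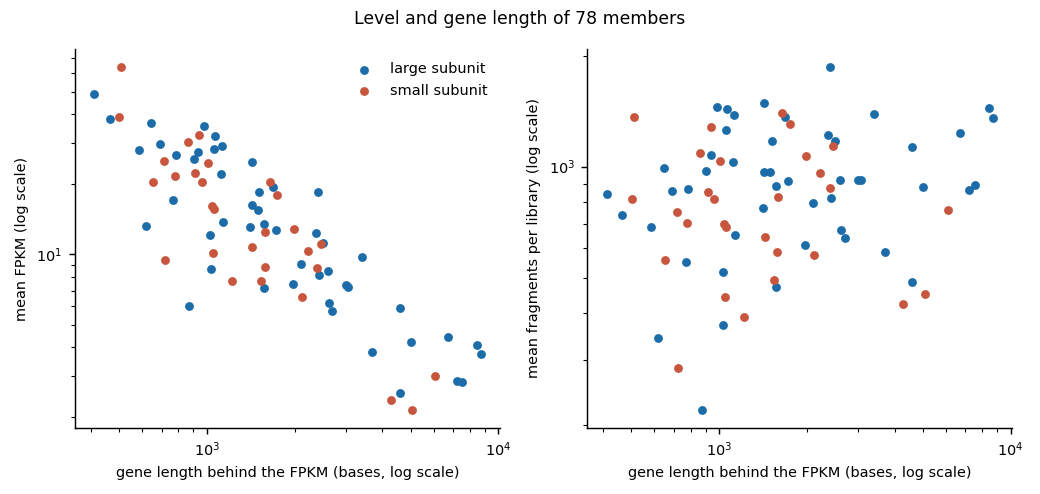
Mean FPKM (left) and mean fragments per library (right), on log scales, against the gene length behind the FPKM (bases, log scale) for large (blue) and small subunit genes (red). FPKM goes down with length over the 78 genes (Spearman's rho -0.81), and fragments do not (0.17).

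Genes of the other parts of mitochondrial translation gave 0 calls at an adjusted p-value under 0.05 as well. The 5 mitoribosomal proteins with other symbols (Dap3, Ptcd3, Chchd1, Aurkaip1 and Gadd45gip1) had log2 fold changes between -0.0333 and 0.0029, and 0 passed at an unadjusted p-value under 0.05. Dap3, a GTP-binding small subunit protein first described in cell death, had 5.01, 4.94 and 4.99 FPKM in Ctrl and 4.79, 5.12 and 4.96 in ZA. Of 27 assembly and rRNA modification genes tested, 2 were higher and 1 lower at an unadjusted p-value under 0.05. At that threshold all genes tested gave 7.5% higher and 4.84% lower. Mterf4, which brings an rRNA methyltransferase to the large subunit, had 5.92, 5.72 and 6.32 FPKM in Ctrl and 7.06, 7.25 and 7.21 in ZA. Its groups were clearly apart, at a log2 fold change of 0.23 ± 0.0415 (SE, limma adjusted p = 0.0783). Trmt61b, an RNA methyltransferase, had 2.48, 2.77 and 2.22 FPKM in Ctrl and 2.05, 2.16 and 2.05 in ZA (limma adjusted p = 0.324).

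Of 18 translation factor and mRNA handling genes, 2 were higher and 1 lower at an unadjusted p-value under 0.05 (all genes 7.5% and 4.84%). The release factor gene Mtrf1 had 1.97, 2.02 and 2.12 FPKM in Ctrl and 2.7, 2.36 and 2.43 in ZA (log2 fold change 0.20, limma adjusted p = 0.189). The elongation factor gene Tsfm had 8.77, 8.03 and 7.93 FPKM in Ctrl and 7.38, 7.05 and 7.8 in ZA (log2 fold change -0.14, limma adjusted p = 0.326). In both genes the groups did not overlap. Of 18 mitochondrial aminoacyl-tRNA synthetase genes tested, 1 was higher (all genes 7.5%) and 0 were lower (all genes 4.84%) at that threshold. The higher gene was Fars2, for phenylalanine, with 1.17, 1.19 and 1.17 FPKM in Ctrl and 1.41, 1.4 and 1.32 in ZA (limma adjusted p = 0.353). Wars2, for tryptophan, followed with means of 1.07 ± 0.0895 and 1.24 ± 0.0841 FPKM (SD, n = 3 each, limma adjusted p = 0.457). Over the 18 synthetase genes 12 log2 fold changes were positive and 6 negative, from -0.29 to 0.12.

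The templates of this ribosome, the 13 mitochondrially encoded mRNAs, all had negative log2 fold changes, with a median of -0.22. Without Ctrl 1, Ctrl 3, ZA 1 or ZA 2, 12 of the 13 were negative. Of these 13, 4 were lower at an adjusted p-value under 0.05 (ND2, CYTB, COX2 and COX3), where 0.368% of all genes passed in either direction. COX3 was at 40.5, 32.4 and 32.6 FPKM in Ctrl and 16.1, 15.3 and 15.6 in ZA (log2 fold change -1.11 ± 0.0774 SE, limma adjusted p = 0.00449). COX3 was the lowest of the 13 by far, as their quartiles were -0.29 and -0.18. Mean FPKM of the 13 ran from 1.74 to 7016.9, with a median of 41.8. CYTB was at 1977.4, 1905.3 and 1901.5 FPKM in Ctrl and 1620.3, 1613.0 and 1472.5 in ZA (limma adjusted p = 0.0432). Leaving out a library lowered these calls from 4 to between 0 and 2. There were 0 without ZA 2 (COX3 adjusted p = 0.08), 1 without Ctrl 1, Ctrl 2 or Ctrl 3 (COX3), and 2 without ZA 1 or ZA 3 (COX3 and CYTB). Without a filter on low values there were 0, without a trend in the prior 1 (COX3), and by voom on whole fragments 7. The 78 tested genes of the cytosolic ribosome had a median log2 fold change of 0.0366. At an unadjusted p-value under 0.05, 17 were higher and 0 lower, where all genes gave 7.5% and 4.84%, and 0 passed the adjustment. Rpl11 had 186.6, 194.0 and 192.0 FPKM in Ctrl and 203.8, 207.0 and 210.5 in ZA (limma adjusted p = 0.0975), and Rps7 had means of 347.5 ± 4.46 and 373.9 ± 10.7 (SD, n = 3 each, limma adjusted p = 0.156). The lists share all 6 libraries, and the differences between them were not tested.

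**Figure D5:**
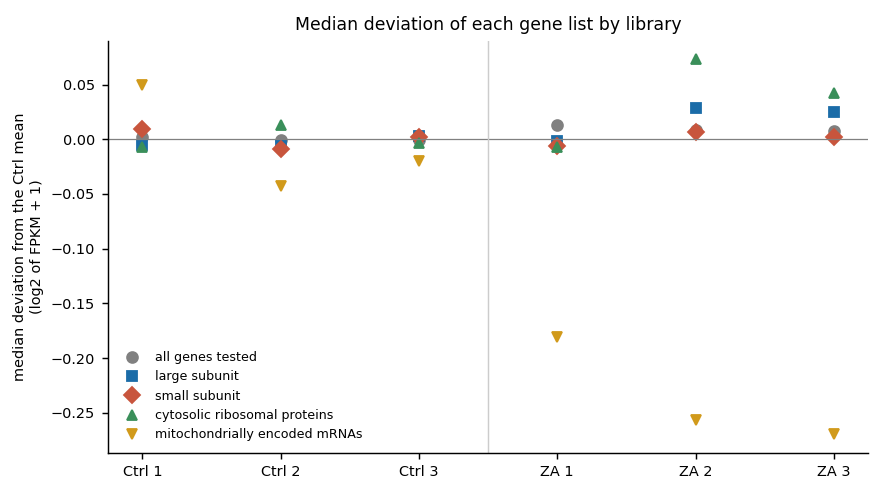
Median deviation of log2(FPKM + 1) from the Ctrl mean (y axis) in each of the 6 libraries for all genes tested, the subunits, the cytosolic ribosome and the mitochondrially encoded mRNAs. The large subunit lies between -0.0055 and 0.0281 and the small subunit between -0.0089 and 0.0089, while the mitochondrially encoded mRNAs are at -0.18, -0.26 and -0.27 in ZA 1, 2 and 3.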

How the data were processed

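RNA of BMDMs (3 Ctrl and 3 ZA libraries) was sequenced as 150 bp paired-end reads. The labels name a VAHTS kit and a SMARTER kit, and the submitters' processing notes name the build mm9; the aligner and counter are not given in the sources used here. The authors deposited 1 table of FPKM values, in which 11 of 35434 rows held all separators. In the others the symbol and values run together, and they were separated from how the numbers are written (24822 rows) or, failing that, by requiring whole fragments in all libraries at a common gene length between 20 and 250000 bases (10597 rows). In all 35419 rows were restored, and 15 were left out, with Ctsd and Fth1 among them. All columns were used, and 0 were unmatched to a sample.

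The two-sided comparison used limma 3.58.1 (R 4.3.3, eBayes with a trend) on log2(FPKM + 1), for all genes whose mean FPKM reached 1, and p-values were adjusted over them by Benjamini-Hochberg. Fold changes of low genes are understated on this scale. The scripts were tested on simulated data. Members and lists were chosen with earlier results of these data known, and protein families and subunits were assigned from general knowledge of ribosome structures. Genes were named by rule: per subunit the 4 highest and 4 lowest moderated statistics and the 2 highest and 2 lowest mean FPKM, 9 genes by role, and per list the 2 largest statistics. Other genes named, for their place or counts, were chosen after their values were seen. Alternatives were another pseudocount and filter, centring, quantile normalization, a prior without a trend, the replicate block, voom on whole fragments, subunits by structure, and leaving out each library. Replicate numbers come from the labels, which do not say that equal numbers share a culture. Chi-square per gene between libraries of a group was 3.51 to 9.54, so that none was a duplicate. Summaries used Python 3.11.15 with pandas 2.3.3 and NumPy 2.4.6, and plots Matplotlib 3.10.9.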

Additional observations from a re-analysis of the deposited data

How the results depend on the processing

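No member passed an adjusted p-value under 0.05 (limma) in the main comparison or in any alternative that kept all libraries. Leaving out 1 library gave 0 to 1 such members, the 1 being Mrps28 without ZA 1 (-0.39, limma adjusted p = 0.0164). At an unadjusted p-value under 0.05 it gave between 7 and 15 of 78 members instead of 7, the 15 without ZA 2. Among all genes this unadjusted share was 9.93% without ZA 2, 9.71% to 14.2% over the libraries left out, and 12.3% in the main comparison. With the replicate block there were 11 of 78 at an unadjusted p-value under 0.05, where all genes gave 15.4%, and 0 adjusted. Same-numbered libraries deviated together with correlations of 0.285, 0.0395 and 0.281 across genes, and each library correlated best with its own number, a hint from the data and not from the design, so the samples were taken to share only a number. Over all genes, adjusted calls were 36, with 81 under the block, 132 by voom, 20 with quantile normalization, 28 centred, 1 without a filter, 1 without a trend, and 0 to 25 with a library left out. The median log2 fold change of large subunit genes (0.0203) became 0.0075 when centred, 0.0037 with quantile normalization, and 0.0051 to 0.0290 with a library left out. That of small subunit genes (0.0123) became -0.0005, 0.0023, and 0.0056 to 0.0277, and -0.0026 with subunits by structure. Their difference (0.0080) became -0.0041 with a filter of 5 FPKM, 0.0250 by structure, and -0.0044 to 0.0193 with a library left out. The log2 fold change of Mrps10 (0.0011) became -0.0117 centred, -0.0076 with quantile normalization, and -0.0228 to 0.0312 with a library left out. Among the members named by rule, leaving out a library also turned the sign of Mrpl12 (-0.0739 to 0.0061), Mrpl33 (-0.0316 to 0.11) and Mrps18c (-0.15 to 0.0018). Signs of the other members were not followed over the settings. The cause was not tested. Depth limits the least counted members, Mrpl47 and Mrps28, which had as few as 199 and 232 fragments in a library.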
